A study of Mus musculus with 36 samples.

Results

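The genes of Polycomb repressive complex 2 (PRC2) were followed by RNA-seq through the reprogramming of mouse fibroblasts into induced pluripotent stem cells (iPSCs), with and without the KRAB zinc finger gene Zfp266. The 10 members, Suz12, Eed, Ezh2, Ezh1, Rbbp4, Rbbp7, Jarid2, Mtf2, Phf19 and Epop, were taken by gene name from a table of 21442 genes, and all 10 were measured. The set was taken up because Suz12 had the lowest FDR in the comparison of Zfp266 KO with WT cells at day 7 of reprogramming. The members were in that sense chosen by day 7 values, and the differences between KO and WT at day 7 are given as values only, with no test.

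The 36 libraries formed 12 groups of 3, which were WT and Zfp266 KO cells at each of 6 stages. The MEFs were passage 2 embryonic fibroblasts of strain 129 with a Cas9 transgene and a doxycycline-inducible cassette of Oct4, Sox2, Klf4 and c-Myc (OSKM), and both genotypes carried these. WT MEFs received a non-targeting sgRNA and KO MEFs an sgRNA against Zfp266, as pools of transduced cells that were not cloned. Day 3, day 5 and day 7 cells had the same sgRNAs and were kept in ESC medium with doxycycline and vitamin C. Cells with an active cassette (mOrange+) were sorted from a co-culture that held a large excess of WT MEFs without the cassette. iPSC libraries were 3 clones a genotype, grown without doxycycline and with puromycin. ESC libraries were 3 of the parental line named Clone J and 3 KO clones derived from it, so WT ESCs were repeated samples of 1 line and their spread is not that between clones. Medium, sorting and cloning changed together with stage and cannot be told apart from it. Within ESCs, transfection and single-cell cloning also changed together with genotype.

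PRC2 places methyl groups on lysine 27 of histone H3, a mark of silent developmental genes. Its core joins SUZ12, EED, an EZH1 or EZH2 methyltransferase and the histone-binding proteins RBBP4 or RBBP7. It works as PRC2.1, which holds a Polycomb-like protein (PHF1, MTF2 or PHF19) and may hold EPOP, or as PRC2.2, which holds JARID2 and AEBP2. In ESCs the complex occupies the CpG islands of lineage genes, and cells that lack it can still self-renew but differentiate poorly.

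Library totals ran from 19224103 to 39610939 counts. Zfp266 RNA did not mark the genotype in the same way at all stages. The genotypes overlapped in MEFs, at 2828 to 3096 normalised counts in WT and 3072 to 3293 in KO. They also overlapped at day 5 (WT 1266 to 1520, KO 1507 to 1707) and day 7 (WT 1432 to 1535, KO 1501 to 1557). At day 3 KO was higher without overlap (WT 1417 to 1598, KO 1824 to 2050). KO was lower without overlap in iPSCs (WT 2529 to 2817, KO 1892 to 2212) and ESCs (WT 2238 to 2445, KO 1969 to 2222). An sgRNA makes small insertions and deletions that need not lower RNA, so these values do not check the labels. Marker lists followed the stage labels. The 8 fibroblast genes summed to 401802 to 419153 normalised counts in WT MEFs and 77.5 to 107 in WT iPSCs. The 8 pluripotency genes summed to 19.7 to 30.8 and 99871 to 116150.0. KO replicate 3 stood apart among the MEFs: its fibroblast genes summed to 541693 against 374784 to 419153 in the other 5 libraries, its 16 cell cycle genes to 29117 against 39060.1 to 43083 and its 4 epithelial genes to 413 against 1804 to 2929.

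The promoter sequences of a pair of members that were far apart between stages or genotypes (Suz12, Phf19), of the member with the lowest FDR between day 7 and iPSCs (Mtf2) and of a member that stayed almost level (Rbbp7) are shown. They are RefSeq's (build GRCm38.p6) and run from upstream to the gene's start in the direction of transcription. Capitals mark matches, on either strand, to CCAAT or to 4 words of the E2F site (TTTCCCGC, TTTGGCGC, TTTCGCGC and TTTGCCGC), which do not overlap each other; a match on the other strand is printed as its reverse complement. E2F factors bind such words in genes of the cell cycle. Suz12 and Phf19 are also the members whose windows held an E2F word, so the printed set overstates how common these were. From the lowest to the highest WT stage mean Suz12 spanned 5.39-fold. Eed (6.30-fold), Mtf2 (12.3-fold) and Jarid2 (13.0-fold) were among the members that spanned more.

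Suz12 (chr11:79992856-79993105, plus strand): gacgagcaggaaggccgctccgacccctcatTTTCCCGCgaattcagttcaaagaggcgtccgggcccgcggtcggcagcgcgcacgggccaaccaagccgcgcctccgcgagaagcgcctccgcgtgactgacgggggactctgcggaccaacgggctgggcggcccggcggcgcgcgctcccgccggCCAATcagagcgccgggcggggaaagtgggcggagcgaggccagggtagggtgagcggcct
Phf19 (chr2:34914027-34914226, minus strand): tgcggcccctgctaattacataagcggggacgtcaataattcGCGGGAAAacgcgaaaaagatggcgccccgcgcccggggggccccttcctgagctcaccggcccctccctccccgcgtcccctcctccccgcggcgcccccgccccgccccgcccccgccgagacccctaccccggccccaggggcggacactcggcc
Mtf2 (chr5:108065424-108065673, plus strand): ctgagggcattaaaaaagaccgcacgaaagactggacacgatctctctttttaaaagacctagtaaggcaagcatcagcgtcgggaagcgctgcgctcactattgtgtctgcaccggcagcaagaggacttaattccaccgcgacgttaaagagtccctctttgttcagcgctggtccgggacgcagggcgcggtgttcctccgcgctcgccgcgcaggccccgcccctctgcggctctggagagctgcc
Rbbp7 (chrX:162760122-162760371, plus strand): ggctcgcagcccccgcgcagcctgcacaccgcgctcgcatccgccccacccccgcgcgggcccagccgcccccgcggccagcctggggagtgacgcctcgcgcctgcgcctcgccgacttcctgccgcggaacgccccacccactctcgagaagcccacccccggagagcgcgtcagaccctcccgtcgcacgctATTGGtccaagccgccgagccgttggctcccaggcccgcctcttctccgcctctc

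Of the 9 members with a promoter window of 250 bases in RefSeq's table, Suz12 and Phf19 held 1 E2F word each, and the other 7 held none. Such words stood in 1.86% of 32851 windows of the same length, and CCAAT in 33.8%. Suz12, Rbbp4, Rbbp7 and Jarid2 had 1 CCAAT each and Ezh2 had 3. Words were counted in the full windows of 250 bases. Those of Jarid2 and Ezh2 lay wholly inside the GENCODE gene, so their matches are not upstream of its start. A match is a string of letters and was not tested as a site. Epop was not among the windows.

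Suz12 (ENSMUSG00000017548, GRCm38 chromosome 11, 79993106 to 80034123) encodes the scaffold on which the core is built. In WT cells it stood at 2162, 2158 and 2074 normalised counts (library counts scaled for depth) in MEFs, 1478, 1594 and 1387 at day 3 and 1784, 1575 and 1600.0 at day 5. It stood at 3071, 3576 and 3013 at day 7, 8116, 7817 and 8103 in iPSCs and 7482, 7601 and 7906 in ESCs. The day 3 libraries were all below the MEF libraries, and the day 7 libraries were all above both. A gene was called where the DESeq2 FDR over all genes was below 0.05. By that rule Suz12 fell between MEFs and day 3 (log2FC -0.52, SE 0.066, DESeq2 FDR 1.27e-14). It did not pass between day 3 and day 5 (log2FC 0.15, DESeq2 FDR 0.0694). It then rose to day 7 (log2FC 0.96, SE 0.064, DESeq2 FDR 8.07e-48) and again to iPSCs (log2FC 1.32, SE 0.061, DESeq2 FDR 5.19e-101). In bulk RNA, a change in the share of cells that express a gene and a change in RNA per cell cannot be told apart, here and in every comparison that follows.

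Eed (chromosome 7, 89954654 to 89980983), whose protein binds trimethylated lysine 27 and stimulates the enzyme, moved little before day 7. WT values were 1599 to 1764 in MEFs, 1542 to 1582 at day 3, 1339 to 1569.9 at day 5 and 1548, 1985 and 1676 at day 7. None of these 3 steps was called. Between day 7 and iPSCs it rose 4.62-fold (log2FC 2.21, SE 0.14, DESeq2 FDR 1.46e-53). The 3 WT iPSC clones were uneven, with 5011, 9875 and 9200.4. The first clone was far below the other two and below every ESC library (8778 to 9705). Suz12 was at its usual level in that clone, so the ratio of Suz12 to Eed per kb of exon was 0.613 to 1.25 across WT iPSCs.

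The methyltransferases rose at different times. Ezh2 (chromosome 6, 47530139 to 47595341), the enzyme of dividing cells, moved from 1231, 1266 and 1222 in WT MEFs to 3367, 3458 and 3244 at day 3, a 2.71-fold rise (log2FC 1.44, SE 0.074, DESeq2 FDR 4.66e-83). It then fell slightly to day 5 (log2FC -0.23, DESeq2 FDR 0.00631; lost without day 5 replicate 3, FDR 0.053). It rose to day 7 (log2FC 0.32, DESeq2 FDR 1.04e-04) and reached 6142 to 6825 in WT iPSCs and ESCs. Ezh1 (chromosome 11, 101191115 to 101226463), its less active paralogue, most often linked to resting cells, stood at 329, 362 and 358 in WT MEFs, 499, 501 and 539 at day 3, 802, 866 and 929.6 at day 5 and 1079, 1109.6 and 1109 at day 7. All 3 steps passed (log2FC 0.55, DESeq2 FDR 9.87e-06, then log2FC 0.76, DESeq2 FDR 6.45e-10, then log2FC 0.34, DESeq2 FDR 0.00977), and no stage overlapped the next. Ezh1 was the only member that rose at each of them. The last call was lost without day 5 replicate 1 (DESeq2 FDR 0.0737). Its level in WT iPSCs, 907 to 1307, overlapped that at day 7 (log2FC 0.068, DESeq2 FDR 0.575). Per kb of exon, Ezh2 exceeded Ezh1 3.96 ± 0.192 times in WT MEFs, 7.31 ± 0.526 times at day 3, 3.70 ± 0.457 times at day 5 and 5.83 ± 0.245 times in ESCs (mean ± SD, n = 3). The day 5 ratios (3.27 to 4.18) overlapped those of MEFs (3.81 to 4.17), although both genes were above their MEF levels.

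Rbbp4 and Rbbp7, histone chaperones that also serve in other chromatin complexes, differed. Rbbp4 (chromosome 4, 129307100 to 129335370) went from 7588, 7717 and 7789.9 in WT MEFs to 3476, 3686 and 3462 at day 3 and 2754, 2882 and 2655 at day 5. It then went to 3852, 4303 and 4007 at day 7 and 12339, 14503 and 13708 in iPSCs. It was the lowest at day 5 with no overlap with any other WT stage. It fell to day 3 (log2FC -1.12, DESeq2 FDR 2.14e-72) and to day 5 (log2FC -0.36, DESeq2 FDR 3.10e-07). It rose to day 7 (log2FC 0.55, DESeq2 FDR 2.35e-16) and to iPSCs (log2FC 1.74, DESeq2 FDR 1.36e-176). Rbbp7 (chromosome X, 162760402 to 162779092) ranged from 6592 to 9178 in all 18 WT libraries. Its step to day 3 passed with a small size (log2FC 0.18, SE 0.052, DESeq2 FDR 6.64e-04). The fall from day 7 to iPSCs (log2FC -0.12, DESeq2 FDR 0.0353) was lost with edgeR, with TMM scaling, in a fit of those groups alone and without any 1 of the 3 day 7 libraries or the first iPSC clone.

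**Figure D1:**
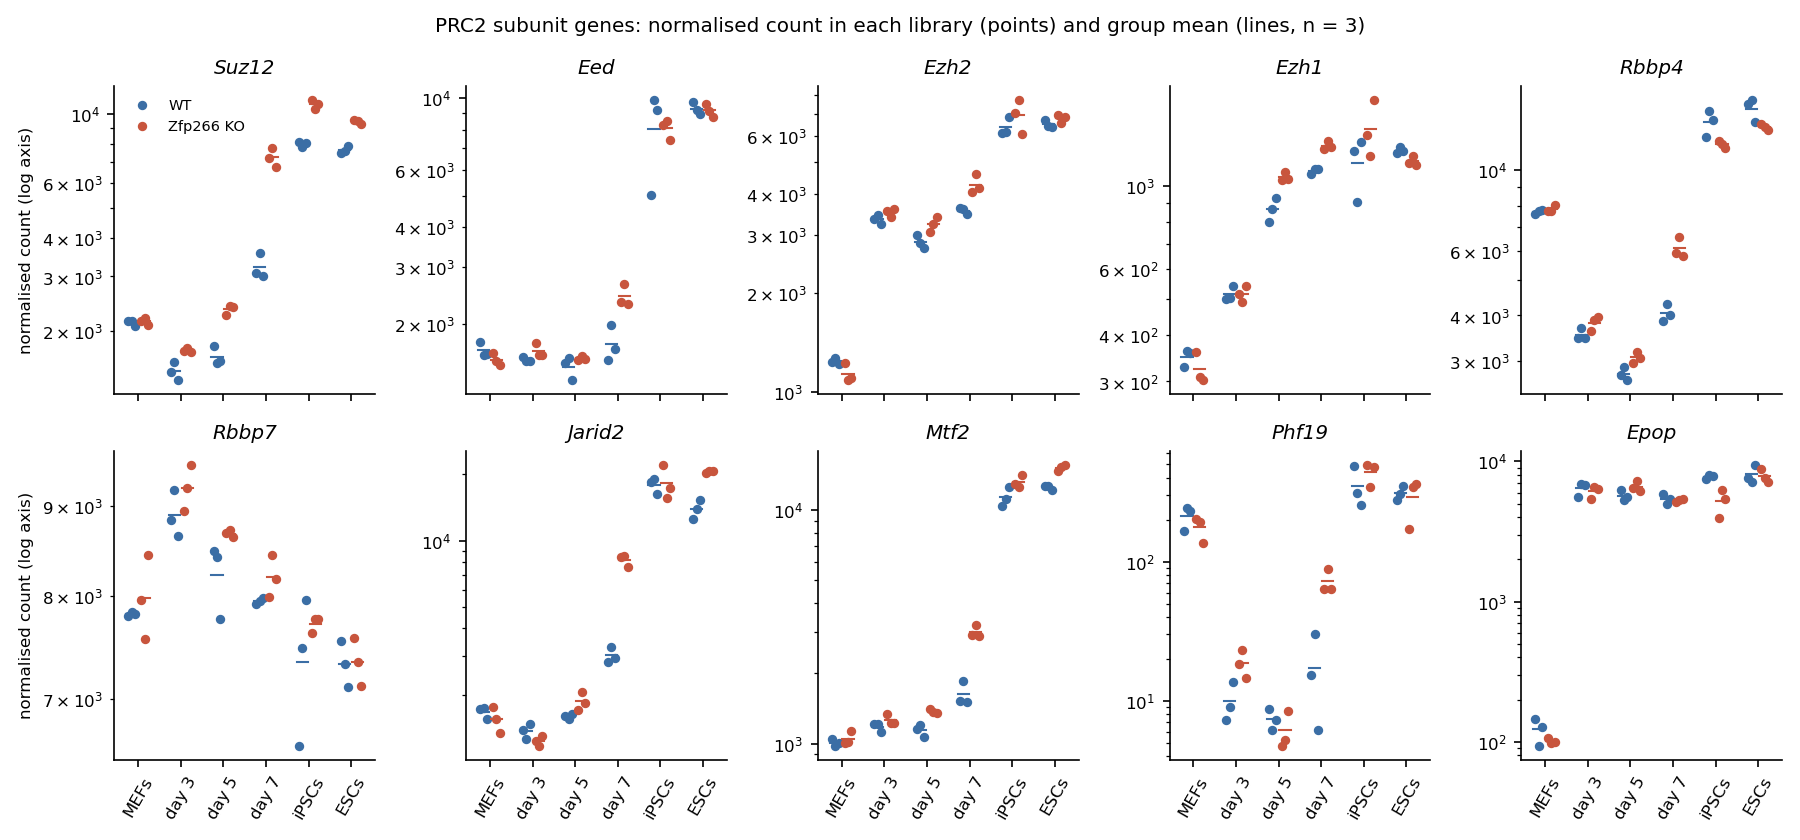
Normalised count on a log axis (vertical) of each of the 10 PRC2 genes in every library at the 6 stages (horizontal), WT in blue and Zfp266 KO in red, with a line at the mean of 3 libraries. Suz12, Jarid2, Mtf2 and Phf19 in KO cells at day 7 lie between the WT libraries of day 7 and those of iPSCs, while Rbbp7 spans 6592 to 9178 over all WT libraries.

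Among the PRC2.1 accessory genes, Epop and Phf19 moved in opposite directions at the first step, by more than any other member. Epop (chromosome 11, 97627389 to 97629702), which links PRC2 to elongin, went from 146, 93.9 and 128 in WT MEFs to 5532, 6946 and 6799 at day 3, a 52.4-fold rise (log2FC 5.71, SE 0.16, DESeq2 FDR 3.78e-268). All 3 were still below the range in WT ESCs, 7184 to 9396, and neither of the following steps to day 5 and day 7 was called. Phf19 (chromosome 2, 34893757 to 34914026), a Polycomb-like protein that recruits PRC2 to CpG islands, went from 167, 242 and 230.3 in WT MEFs to 7.34, 9.00 and 13.6 at day 3, which is 21.5-fold lower (log2FC -4.43, SE 0.39, DESeq2 FDR 1.74e-28). It stayed at 8.74, 6.19 and 7.29 at day 5 and 15.2, 30.2 and 6.17 at day 7, where the libraries overlapped. The call of a rise (log2FC 1.22, DESeq2 FDR 0.0416) was lost with edgeR and without any 1 of 5 of the 6 libraries, with an FDR of up to 0.561. In WT iPSCs it was back at 486, 309 and 255 (log2FC 4.34, SE 0.36, DESeq2 FDR 1.86e-33). WT ESCs against WT MEFs did not pass (log2FC 0.55, DESeq2 FDR 0.0856; 95% confidence interval of the log2FC -0.044 to 1.13). That comparison passed with edgeR, with TMM scaling and in a fit of those 2 groups alone.

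Mtf2 (chromosome 5, 108065674 to 108109004), the Polycomb-like protein that is most abundant in ESCs, changed little before day 7. WT values were 1050.5, 981 and 1004 in MEFs, 1210.3, 1211 and 1117 at day 3, and 1159, 1199 and 1064 at day 5. They were 1529, 1861 and 1512 at day 7 and 10405, 11192 and 12545 in iPSCs. The iPSC libraries stood 6.96-fold above day 7 (log2FC 2.80, SE 0.076, DESeq2 FDR 6.68e-293). Jarid2 (chromosome 13, 44729474 to 44921643), the defining subunit of PRC2.2, fell a little to day 3 (log2FC -0.28, DESeq2 FDR 0.0174), a call lost with edgeR, with TMM scaling and without 3 of 6 libraries in turn. It stood at 1599.9, 1559.5 and 1647 at day 5, 2817, 3301 and 2947 at day 7 and 18431, 18944 and 16305 in iPSCs. It rose at both steps (log2FC 0.92, DESeq2 FDR 8.95e-15, then log2FC 2.57, DESeq2 FDR 2.55e-124).

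Counted by step, 5 of 10 members rose and 4 fell between WT MEFs and day 3, where 33.8% higher and 37.1% lower of the 21436 genes tested were called. Between day 3 and day 5, 1 rose and 2 fell, against 12.4% higher and 12.7% lower of the 21436 genes tested. From day 5 to day 7, 7 rose and none fell, against 13.5% higher and 10.7% lower of the 19773 genes tested. The members' median log2FC was 0.43 beside 0.019 over all tested genes. From day 7 to iPSCs, 8 rose and 1 fell (median 1.53 beside 0.014), against 35.8% higher and 37.7% lower of the 21436 genes tested. Both steps share the day 7 WT libraries with the contrast that the choice of genes used, and are not independent of that choice. Over the whole distance from WT MEFs to WT ESCs 8 rose and none fell, against 40.0% higher and 39.4% lower of the 21436 genes tested. Their log2FC ran from 0.94 for Rbbp4 to 6.04 for Epop and a highest DESeq2 FDR of 3.35e-53. Phf19 and Rbbp7 were the other two (log2FC -0.093, DESeq2 FDR 0.0897 for Rbbp7, whose sign turned with edgeR and with TMM scaling). TMM scaling moved the median of all genes by 0.11 on the log2 scale in this comparison.

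**Figure D2:**
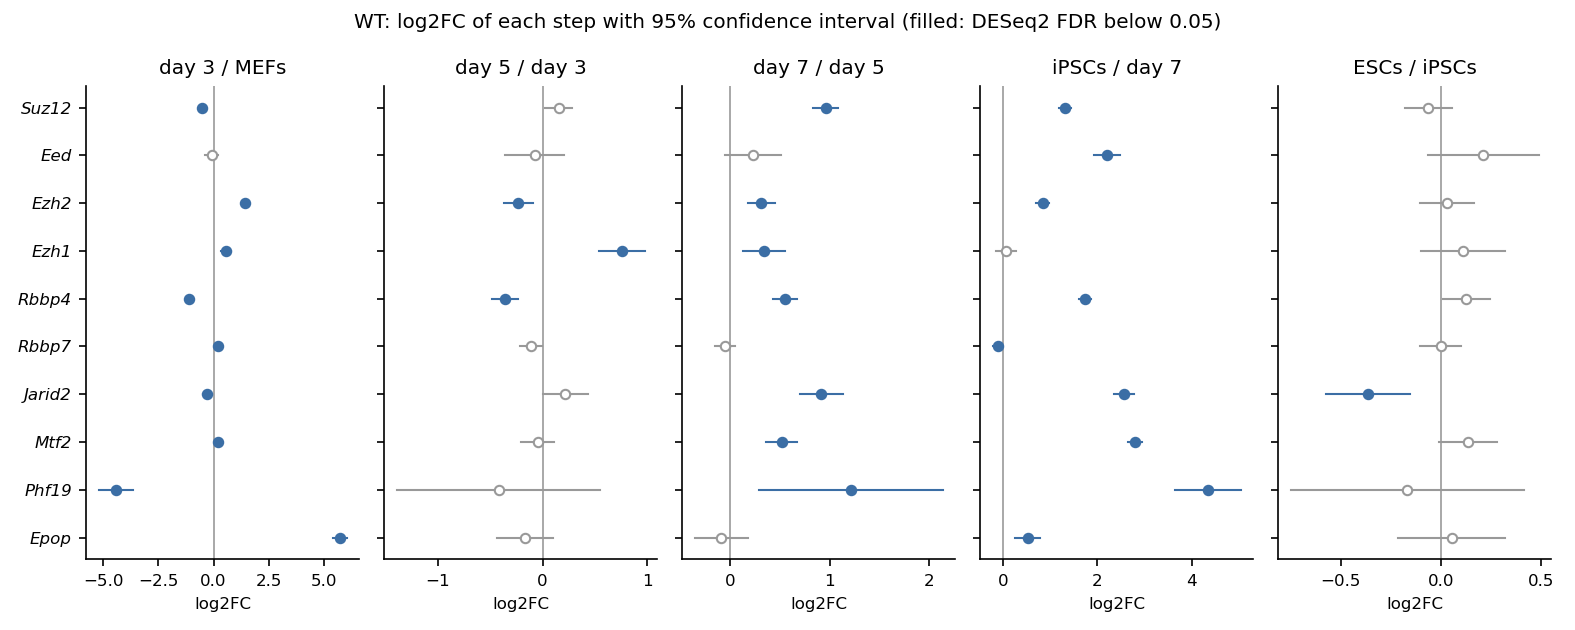
Log2FC (horizontal) of the 10 PRC2 genes (vertical) for each step between WT stages, with the 95% confidence interval as a line and filled points for DESeq2 FDR below 0.05. Epop at 5.71 and Phf19 at -4.43 are at opposite ends of the first step, and the axis range differs between panels.

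WT iPSC clones and WT ESCs were close in these genes. Jarid2 alone was called, with 18431, 18944 and 16305 in iPSCs and 12586, 13873 and 15208 in ESCs (log2FC -0.37, SE 0.11, DESeq2 FDR 0.029). Over all genes 1.09% higher and 2.11% lower of the 12708 genes tested passed. That call was lost with edgeR, in a fit of the 2 groups alone and without 4 of the 6 libraries in turn. For the other members the log2FC of ESCs over iPSCs ran from -0.17 for Phf19 (95% confidence interval -0.75 to 0.41) to 0.21 for Eed (-0.065 to 0.49).

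Set against each other per kb of exon, the members changed order along the WT course. Rbbp7 was the highest in WT MEFs at 2688 ± 5.97 normalised counts per kb, followed by Rbbp4 at 880.4 ± 11.7. At the bottom were Epop at 53.1 ± 11.5, Ezh1 at 47.0 ± 2.43 and Phf19 at 42.3 ± 8.04 (mean ± SD, n = 3). By day 3 Epop was second at 2777 ± 336, and in WT ESCs it was first at 3486 ± 507. The levels of Suz12 and Eed per kb were alike in WT MEFs (431 ± 10.1 and 434 ± 23.6). Suz12 was the higher at day 7 (1.44 ± 0.0826 times Eed), and Eed was the higher in ESCs (0.640 ± 0.0429 times). In every WT group Phf19 was the lowest. Mtf2 exceeded it 4.33 ± 1.07 times in MEFs and 35.8 ± 4.71 times in ESCs.

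**Figure D3:**
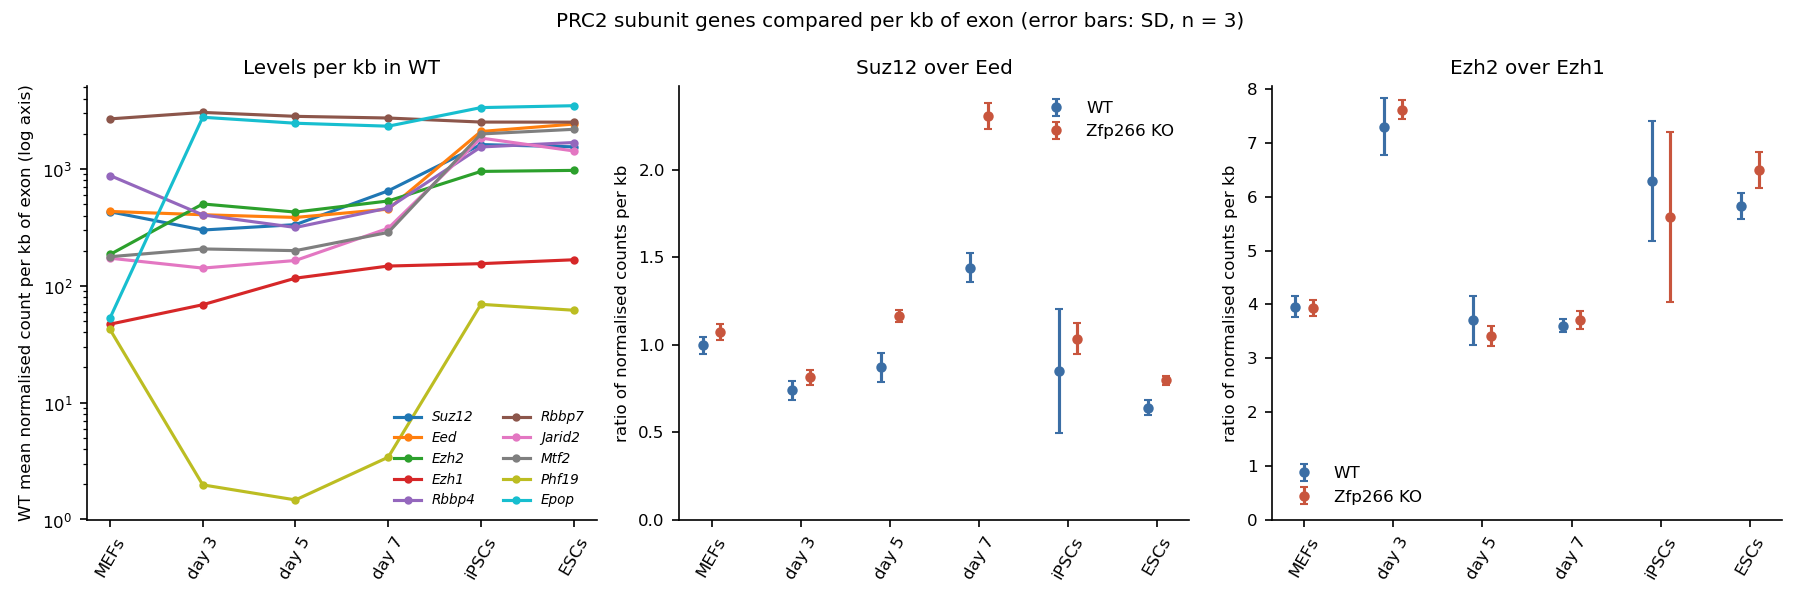
Left, WT mean normalised count per kb of exon (vertical, log axis) of the 10 genes over the 6 stages (horizontal); middle and right, the ratio per kb (vertical, from 0) of Suz12 to Eed and of Ezh2 to Ezh1 by stage (horizontal), as mean with SD of 3 libraries, WT in blue and Zfp266 KO in red. The Suz12 to Eed ratio is highest at day 7, 1.44 ± 0.0826 in WT and 2.31 ± 0.0762 in KO, and the Ezh2 to Ezh1 ratio at day 3 is 7.31 ± 0.526 in WT.

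The comparison of KO with WT at each stage asks what loss of Zfp266 changed. The set had been selected on the day 7 contrast, in which Suz12 stood at 3071, 3576 and 3013 normalised counts in WT and 7243, 7806 and 6743 in KO, 2.26-fold higher. Jarid2 stood at 2817, 3301 and 2947 in WT and 8442, 8474 and 7584 in KO (2.70-fold). Phf19 stood at 15.2, 30.2 and 6.17 and 63.3, 89.3 and 63.5 (4.18-fold, from few counts). Mtf2 stood at 1529, 1861 and 1512 and 2923, 3215 and 2891 (1.84-fold). In these 4 genes every KO library was above every WT library, and below every WT iPSC library.

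Smaller values were found for Rbbp4 (1.51-fold), Eed (1.40-fold), Ezh2 (1.20-fold), Ezh1 (1.16-fold) and Rbbp7 (1.03-fold), also without overlap. Epop overlapped, with 5831, 4944 and 5385 in WT and 5170.2, 5266 and 5428 in KO. Over all genes 13.3% higher and 16.1% lower of the 21020 genes tested were called in this contrast. In it 20.8% of all genes tested had every KO library above every WT library and 26.6% had every one below. As the members were selected on this contrast, nothing is read from these shares. The ratio of Suz12 to Eed per kb was 1.44 ± 0.0826 in WT and 2.31 ± 0.0762 in KO at that stage. Beside these values, 16 cell cycle genes summed to 71091 to 77059 in WT and 100009 to 109691 in KO, and the 8 pluripotency genes to 5563 to 9675 and 25625 to 33526. The 8 fibroblast genes summed to 21389 to 33457 and 6698 to 20959.8, and 2 leukocyte genes to 235 to 389 and 575 to 743. Their part in the PRC2 values was not tested.

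**Figure D4:**
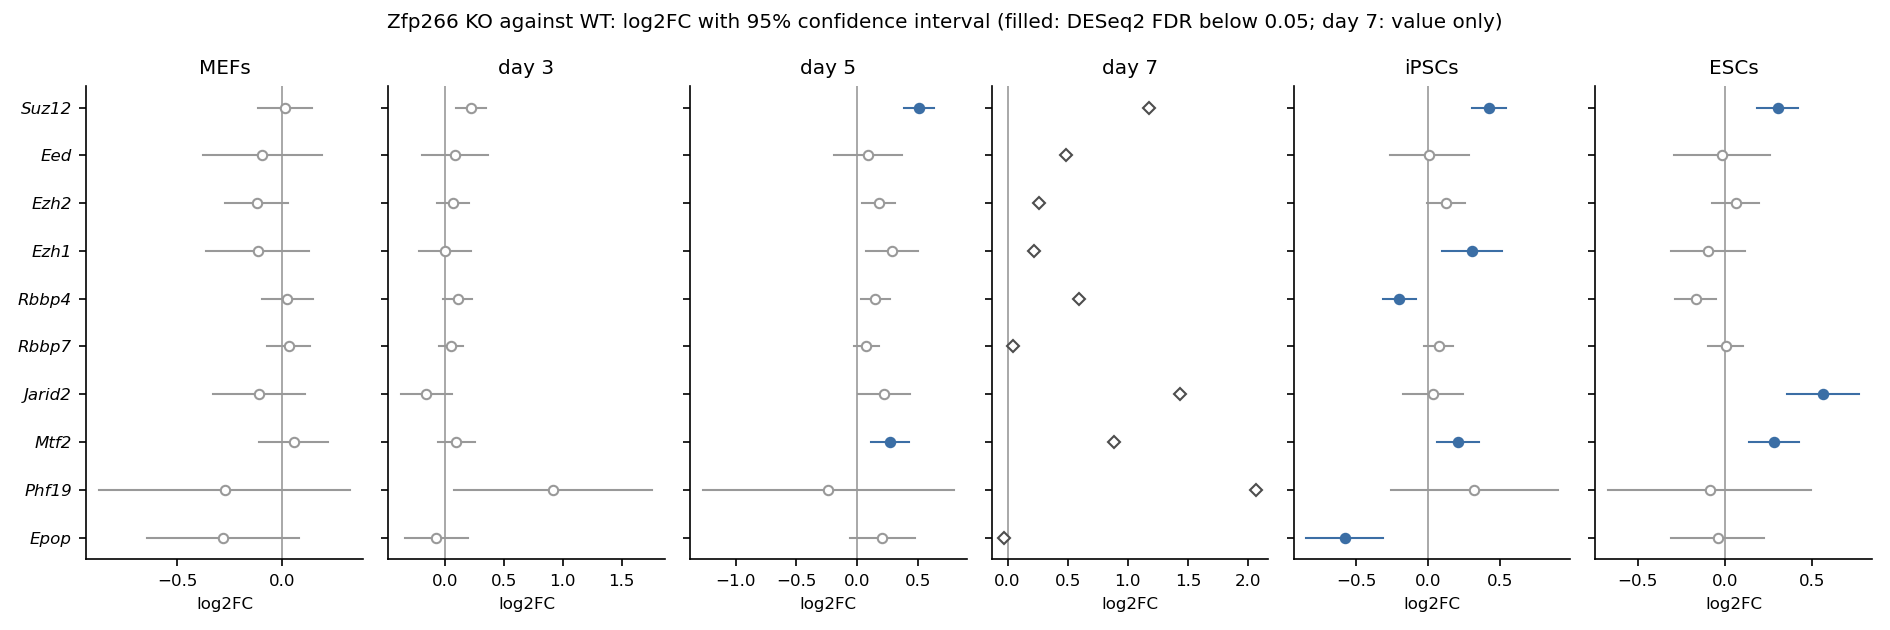
Log2FC of Zfp266 KO over WT (horizontal) for the 10 PRC2 genes (vertical) at each stage, with 95% confidence intervals and filled points for DESeq2 FDR below 0.05; day 7, the contrast behind the choice of genes, is drawn as values only. Suz12 has filled points at day 5 (0.51), in iPSCs (0.42) and in ESCs (0.30), and the axis range differs between panels.

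At day 5 Suz12 and Mtf2 were higher in KO cells. Suz12 stood at 1784, 1575 and 1600.0 in WT and 2260.4, 2415 and 2398 in KO, with no overlap. The means were 1653 ± 114 and 2358 ± 84.7 (mean ± SD, n = 3). It was 1.43-fold higher (log2FC 0.51, SE 0.064, DESeq2 FDR 1.38e-12). It kept its call in all 6 fits that left out 1 library and in every alternative. Mtf2 stood at 1159, 1199 and 1064 in WT and 1407, 1367 and 1359 in KO, also without overlap (log2FC 0.27, SE 0.080, DESeq2 FDR 0.0151). This call was lost without WT replicate 3 or KO replicate 1 or 2 in turn, with an FDR of up to 0.152. The count was 2 higher and 0 lower of 10, where 4.72% higher and 2.43% lower of the 17694 genes tested were called. The members' median log2FC was 0.19 beside -0.012 over all tested genes.

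In 5 further members every KO library lay above every WT library at day 5 without a call, which makes 7 of 10. In this comparison 16.1% of all genes tested had every KO library above every WT library and 16.1% had every one below. Ezh1 stood at 802, 866 and 929.6 in WT and 1038, 1092 and 1042 in KO (log2FC 0.29, DESeq2 FDR 0.0863), and Ezh2 had a log2FC of 0.18 (DESeq2 FDR 0.102). Jarid2, Rbbp4 and Rbbp7 had log2FC 0.22, 0.15 and 0.078 (DESeq2 FDR 0.244, 0.134 and 0.452). A fit of the day 5 libraries alone called 6 members, adding Ezh2, Ezh1, Jarid2 and Epop. Eed overlapped between genotypes (log2FC 0.088, DESeq2 FDR 0.826, 95% confidence interval -0.19 to 0.37). The Suz12 to Eed ratio per kb was 0.777 to 0.925 in WT and 1.13 to 1.19 in KO, without overlap. In the same libraries the cell cycle genes summed to 49822 to 60889 in WT and 69742 to 72705 in KO, and the pluripotency genes to 1245 to 1486 and 2742 to 4126. Sums of 4 epithelial genes were 65328 to 67056 and 69399 to 72296, and of 2 leukocyte genes (Ptprc and Laptm5) 68.1 to 128 and 170.3 to 215, both without overlap. Sums of 3 endothelial genes, 479 to 752 and 491 to 672, overlapped. The same 2 leukocyte genes summed to 2114 to 3523 in WT iPSC clones and to 2044 to 2612 in WT ESCs, where Ptprc was at 0. The source of the leukocyte sums at day 5 was not tested. The part of the cell cycle, pluripotency, epithelial and leukocyte genes in the Suz12 and Mtf2 values was not tested either.

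At day 3 no member was called with DESeq2, and 2 had an unadjusted p under 0.05. Suz12 stood at 1478, 1594 and 1387 in WT and 1724, 1763 and 1707 in KO, without overlap (log2FC 0.22, SE 0.065, DESeq2 FDR 0.105). It passed only without WT replicate 2 (DESeq2 FDR 0.0428) and in the fit with a replicate block. Phf19 stood at 7.34, 9.00 and 13.6 and 18.4, 23.3 and 14.6, also without overlap but from few counts (log2FC 0.92, DESeq2 FDR 0.676). Eed and Mtf2 did not overlap either, with log2FC 0.086 and 0.097. These were 4 of 10, all higher in KO, where 7.87% of all genes tested had every KO library above every WT library and 8.29% had every one below. Over all genes 0.374% higher and 0.119% lower of the 16031 genes tested were called. Whether the KO effect was larger at day 5 than at day 3 was tested by an interaction, which called no member (0 of 10, with 2 at an unadjusted p under 0.05; 0.064% higher and 0.0% lower of the 15616 genes tested). For Suz12 the difference of the log2FC was 0.29 (SE 0.092, 95% confidence interval 0.11 to 0.47, DESeq2 FDR 0.313), and edgeR also called 0 of 10.

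In MEFs, before the cassette was induced, the genotypes overlapped in all 10 genes, where 5.89% of all genes tested had every KO library above every WT library and 6.49% had every one below. None was called with DESeq2 or edgeR, and none had an unadjusted p under 0.05 with DESeq2, where 0.0285% higher and 0.0143% lower of the 21020 genes tested passed. Suz12 stood at 2162, 2158 and 2074 in WT and 2151, 2211 and 2090.1 in KO, with a log2FC of 0.014 (95% confidence interval -0.11 to 0.14). Intervals were widest for Phf19 (-0.87 to 0.32) and Epop (-0.64 to 0.079), the 2 members with the fewest counts there. Cell cycle sums were 42146 to 43083 in WT and 29117 to 39926 in KO MEFs, and endothelial sums 242 to 266 and 291 to 701, both without overlap. Without KO replicate 3, which stood apart, 0 members were called, 0 had an unadjusted p under 0.05 and 0 were without overlap, and the log2FC ran from -0.27 to 0.034.

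In iPSC clones Suz12 was again higher in KO, at 8116, 7817 and 8103 in WT and 11106, 10392 and 10750.5 in KO, without overlap (log2FC 0.42, SE 0.060, DESeq2 FDR 5.59e-10). Epop went the other way, from 7442, 8009 and 7862 in WT to 3919, 6261 and 5403 in KO, 1.50-fold lower and without overlap (log2FC -0.58, SE 0.14, DESeq2 FDR 4.88e-04). Rbbp4 was slightly lower (12339, 14503 and 13708 against 12012, 11763 and 11525; log2FC -0.20, DESeq2 FDR 0.00917). Ezh1 and Mtf2 passed with overlapping libraries. Ezh1 stood at 1244, 907 and 1307 in WT and 1368, 1205 and 1698 in KO (log2FC 0.30, DESeq2 FDR 0.0309), and Mtf2 at 10405 to 12545 in WT and 12493 to 14061 in KO (log2FC 0.21, DESeq2 FDR 0.0339).

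The iPSC count was thus 3 higher and 2 lower of 10, where 9.72% higher and 6.63% lower of the 21020 genes tested were called, with a median log2FC of 0.098 beside 0.024. The cell cycle sums (151742 to 171822 in WT and 156314 to 177779 in KO) and the pluripotency sums (99871 to 116150.0 and 111715 to 127659) overlapped in these clones. Fibroblast sums (77.5 to 107 in WT and 111 to 198 in KO) and endothelial sums (334 to 547 and 261 to 266) did not overlap, and their part was not tested. Without overlap were 1 higher and 2 lower members, where 11.0% of all genes tested had every KO library above every WT library and 8.56% had every one below. A fit of the iPSC libraries alone called 2 of the 5, Suz12 and Epop. The call of Rbbp4 was also lost without WT replicate 2. That of Ezh1 was also lost without WT replicate 2 or KO replicate 1 or 3. That of Mtf2 was lost with edgeR, with TMM scaling and without 4 of the 6 libraries in turn. Eed was not called (log2FC 0.0071, DESeq2 FDR 1) and was called lower in KO without the first WT clone (log2FC -0.24, DESeq2 FDR 0.0291).

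In ESCs, KO clones were made without reprogramming, by transfection of an sgRNA plasmid and growth from single sorted cells. As WT ESCs were samples of the parental line, genotype cannot be told apart from transfection and cloning here. Suz12 stood at 7482, 7601 and 7906 in WT and 9555, 9491 and 9303 in KO, without overlap (log2FC 0.30, SE 0.060, DESeq2 FDR 4.85e-05). Jarid2 stood at 12586, 13873 and 15208 and 20235, 20642 and 20574, 1.47-fold higher (log2FC 0.56, SE 0.11, DESeq2 FDR 1.79e-05). The 3 KO clones were closer to each other than the 3 samples of the parental line. Mtf2 stood at 12608, 12681 and 12137 and 14658, 15215 and 15549 (log2FC 0.28, SE 0.074, DESeq2 FDR 0.00404). These were 3 higher and 0 lower of 10, where 5.82% higher and 4.29% lower of the 16863 genes tested were called. All 3 kept their call in each of the 6 fits that left out 1 library. The pluripotency genes summed to 118163 to 125404 in WT and 132712 to 135327 in KO ESCs, without overlap. The cell cycle genes summed to 150217 to 156254 and 164953 to 168931, also without overlap. Fibroblast sums were 72.1 to 84.3 and 91.5 to 132, and endothelial sums 449.9 to 546 and 306 to 449.5, without overlap as well, and the part of these lists was not tested. Of the members, 3 higher and 2 lower (Ezh1 and Rbbp4) were without overlap, where 17.7% of all genes tested had every KO library above every WT library and 15.6% had every one below. Rbbp4 was just outside the threshold (DESeq2 FDR 0.0504, log2FC -0.17). It passed without WT replicate 3 (DESeq2 FDR 0.00592) and in the fit with a replicate block.

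A difference between iPSCs and ESCs in the KO effect on Suz12 was not called by the test of that difference (difference of log2FC 0.12, 95% confidence interval -0.044 to 0.29, DESeq2 FDR 0.609). Jarid2 was the 1 member called in that test, where 0.924% higher and 0.547% lower of the 16447 genes tested passed. It was called higher in KO ESCs, while it stood at 18431, 18944 and 16305 in WT and 21949, 15557 and 17345 in KO iPSCs (log2FC 0.031, DESeq2 FDR 0.908). The difference of the log2FC, iPSCs minus ESCs, was -0.53 (DESeq2 FDR 0.0354). That call was lost with edgeR, in a fit of those 4 groups alone and without 9 of the 12 libraries in turn. For Epop the difference was -0.54 without a call (DESeq2 FDR 0.138). It passed without KO iPSC replicate 2 or WT ESC replicate 3 (lowest DESeq2 FDR 0.0155) and in the fit with a replicate block.

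Across stages, Suz12 was thus higher in KO at day 5, in iPSCs and in ESCs by test. Mtf2 also passed in all 3, and its calls at day 5 and in iPSCs rested on single libraries. Suz12 had been chosen by its day 7 values. Each WT sample of day 7 deviated most like the day 5 sample of its own number (correlations 0.0529 to 0.156). Whether these came from the same cultures is not given in the labels, so day 5 may not be independent of that choice. Ordered by level, no neighbouring pair of KO stages overlapped for Suz12, from 1707 to 1763 at day 3 through 2090.1 to 2211 in MEFs, and 2260.4 to 2415 at day 5. They went on with 6743 to 7806 at day 7, 9303 to 9555 in ESCs and 10392 to 11106 in iPSCs. In WT cells day 3 overlapped day 5 and ESCs overlapped iPSCs.

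Other genes of the pathway were called in both directions. Of 4 further accessory genes of PRC2 (Aebp2, Phf1, Lcor and Lcorl), Aebp2, the partner of JARID2 in PRC2.2, was called higher in KO at day 5 (log2FC 0.38, DESeq2 FDR 2.92e-04), and none was called in MEFs, day 3, iPSCs or ESCs. Of 23 genes of PRC1, the complex that reads lysine 27 methylation and adds ubiquitin to H2A, KO cells at day 5 had 5 called higher and 1 lower, KO iPSCs 5 and 2, KO ESCs 3 and 0, and MEFs and day 3 none. Over all genes 4.72% and 2.43% were called higher and lower at day 5, 9.72% and 6.63% in iPSCs and 5.82% and 4.29% in ESCs, against which the list counts of this and the next paragraph are to be read. The largest rises at day 5 were Cbx7 (log2FC 0.68, DESeq2 FDR 2.81e-04) and Phc1 (log2FC 0.64, DESeq2 FDR 2.59e-09). Cbx7 is the main reader subunit of ESCs. Kdm6a, a demethylase that removes the mark, was higher at day 5 (log2FC 0.36, DESeq2 FDR 2.79e-05), and its relative Kdm6b was not called in KO at any stage.

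Among 17 measured developmental genes that PRC2 is known to occupy in ESCs, 13 were tested at day 5 with 0 called by DESeq2 or edgeR (1 at an unadjusted p under 0.05). Of 17, 4 were higher in KO iPSCs, and 1 of 11 tested was higher in KO ESCs. In iPSCs the largest were Sox17 (log2FC 3.30, DESeq2 FDR 0.0492) and Gata6 (log2FC 1.79, DESeq2 FDR 0.0265), both endoderm regulators at low levels (22.3 normalised counts of Gata6 in WT and 77.3 in KO). A fit of the iPSC libraries alone called none, as it called none of the PRC1 genes. The ESC gene was Hand1 (log2FC 1.57, DESeq2 FDR 0.043), lost without any 1 of 4 of the 6 libraries. Most of the list had a log2FC below 0 in ESCs, but none of it was called lower. Only 4 of 17 had a log2FC above 0. The median of the 17, which takes in genes that were not tested, was -0.45 beside 0.0 over all tested genes. The 17 genes summed to 1149.8 to 1264 normalised counts in WT and 755 to 1148 in KO ESCs, just without overlap. At day 5, 10 of 16 cell cycle genes were higher in KO and none lower, led by Mcm2 (log2FC 0.57, DESeq2 FDR 5.77e-06) and Top2a (log2FC 0.49, DESeq2 FDR 8.82e-08). In KO iPSCs 1 was higher and 3 were lower, and in KO ESCs 1 was higher and 2 were lower.

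Profiles over the 12 groups were compared by Pearson's r of log2(normalised count + 1) among 13285 genes with a mean of at least 100 normalised counts. Most like Suz12 were Hap1 (0.992), Rad21 (0.991) and Dnmt3l (0.990). Among the other members, Jarid2 (0.984), Mtf2 (0.937) and Eed (0.905) were near, and Rbbp7 ran opposite (-0.750). Eed was most like Trim28 (0.998), Trim13 (0.996) and Mmachc (0.996), and Mtf2 was close to it too (0.991). Ezh2 was most like Mcm10 (0.998), Kif20b (0.998) and Ttf2 (0.996), and Ezh1 like Akap12 (0.990), Crybg2 (0.987) and Tet2 (0.984). These values describe 12 group means that share libraries and a rise from MEFs to ESCs, and many genes have such profiles. The 12 means include those of day 7 WT and KO, by which the members were chosen. Likeness to Suz12 is therefore not independent of that choice.

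Suz12, Eed, Ezh2, Rbbp4, Rbbp7 and Mtf2 share exon bases with genes on the opposite strand, and whether the counting used strand is not given in the sources used here. Mtf2 overlaps Tmed5 over 6.93% of its exon length, and Tmed5 reached 438% of the Mtf2 count in a library. Small differences in Mtf2 are uncertain. Suz12 overlaps Gm26563 over 3.60%, and Rbbp4 overlaps Sync and Gm26722 over 18.0%, with Sync at no more than 1.68% of the Rbbp4 count. Gm26563, Gm26722 and Gm26625, which overlaps Ezh2, were not among the counted genes, so their levels are not known. Txlng overlaps Rbbp7 over 5.98% and reached 35.8% of the Rbbp7 count in a library. E230029C05Rik, which overlaps Eed, stayed at no more than 0.58% of the Eed count. Jarid2, Phf19, Ezh1 and Epop share none.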

How the data were processed

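RNA-seq libraries (poly(A) selected, stranded kit, 75-base single-end reads) were made from 3 samples in each of 12 groups. The authors used cutadapt for trimming, STAR for mapping to GRCm38 and Rsubread for counting over genes; the annotation release and strand setting are not given in the sources used here. The deposited count table holds raw counts per gene, and the deposited normalised table holds the same counts as a signal divided by the authors' DESeq2 size factors, which is the normalised count printed here. Log-transformed values and columns of the authors' own comparisons (fold changes and p-values) were also deposited and were not used.

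Counts of all 21442 genes in the 36 libraries were fitted with DESeq2 1.42.0 (R 4.3.3) as 12 groups, as the study's methods describe. FDR is the Benjamini-Hochberg value over all genes tested, and a call is FDR below 0.05. Groups came from the sample titles. Where nothing says that replicates were separate cultures, p-values measure only the spread between these samples; iPSCs and KO ESCs were separate clones. The study corrected its plots for library preparation date, which the labels do not give, so date and stage cannot be told apart here.

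All 10 members were named, and from each list of related genes up to 2 called higher and 2 called lower in a comparison, by size of the log2FC; Kdm6b and the genes of the PRC2 accessory list were named after their values were seen. A listed gene that the rule would name is not reported here. The members and the lists were chosen with earlier results of these data known. Alternatives were edgeR 4.0.16 (quasi-likelihood), TMM scaling, a minimum of 10 counts in 3 libraries, no independent filtering, a fit of only the groups compared, the replicate number as a block, and leaving out each library. Fits were tested on simulated data. Levels between genes were compared per kb of merged GENCODE exon. Promoters were read from RefSeq (GRCm38.p6; 9 of 10 members matched). Bases inside the GENCODE gene were left out of the printed sequences but kept in the counts of words.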

Additional observations from a re-analysis of the deposited data

Results flagged for a closer look

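The effect of Zfp266 KO on Jarid2 differed between iPSCs and ESCs by an interaction test (difference of the log2FC, iPSCs minus ESCs, -0.53, SE 0.15, 95% confidence interval -0.82 to -0.23, DESeq2 FDR 0.0354). KO ESC clones were all above the parental ESC samples, and KO iPSC clones, at 21949, 15557 and 17345 normalised counts, spanned the WT clones. The call was lost with edgeR, in a fit of those 4 groups alone and without 9 of the 12 libraries in turn, with an FDR from 6.27e-04 to 0.148. Its cause was not tested, and in ESCs genotype cannot be told apart from transfection and cloning.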

How the results depend on the processing

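Of 1800 repeats of the 140 member results under an alternative, 1663 kept direction and side of the threshold, 55 lost the call, 26 gained one and 56 changed sign. The 140 results include KO against WT at day 7, the contrast behind the choice of genes. The tally is therefore not independent of that choice. The sign changes touched 26 results, with a log2FC of at most 0.21 in size, and 1 was called (Eed in iPSCs without WT replicate 1). A fit of only the groups compared gave 6 members at day 5 in place of 2, 2 in iPSCs in place of 5, 0 between WT ESCs and iPSCs in place of 1, and 0 in the iPSC to ESC interaction in place of 1; edgeR gave 0 in both of the last. The cause was not tested; that fit estimates the spread from fewer samples. Filtering of low counts and independent filtering moved no count by over 1.5 times.

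Replicate numbers were shared between groups, but same-numbered samples did not deviate together throughout (correlations 0.0752 to 0.287 at day 3, 0.0593 to 0.167 at day 5, 0.0838 to 0.230 at day 7, -0.0371 to 0.0244 in MEFs), so they were not taken as pairs; each sample at day 5 and day 7 correlated best with its own number, a hint from the data only. With the replicate block, 1 member was called at day 3 (Suz12) and 3 in the iPSC to ESC interaction (Jarid2, Epop and Ezh1); 0 were called in MEFs, and no other count moved by over 1.5 times.

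Leaving out 1 library gave 0 to 1 members at day 3, 1 to 2 at day 5, 2 to 5 in iPSCs and 3 to 4 in ESCs for KO against WT, 8 to 9, 2 to 4, 5 to 7 and 8 to 10 for the WT steps in order, 0 to 2 for WT ESCs against iPSCs and 0 to 2 for the interaction. Counts in MEFs (0), between WT ESCs and MEFs (8) and in the day 5 to day 3 interaction (0) stayed.

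Sign changes under edgeR, TMM scaling and the fit of the groups alone were Epop at day 7 (0.0057, 0.0057 and 0.014) and Eed in iPSCs (-0.0098, -0.0099 and -0.019); under edgeR and TMM, Rbbp7 between WT ESCs and MEFs (0.019 and 0.018) and Eed in the day 5 to day 3 interaction (-0.0025 and -0.0024); and under the fit of the groups alone, Rbbp7 in ESCs (-0.0059). With 1 library left out, log2FC values that changed sign ran, for KO against WT in MEFs, from -0.0066 to 0.034 (Suz12), -0.011 to 0.069 (Rbbp7) and -0.0036 to 0.083 (Mtf2); at day 3, -0.032 to 0.040 (Ezh1) and -0.17 to 0.010 (Epop); at day 7, -0.085 to 0.034 (Epop); in iPSCs, -0.24 to 0.18 (Eed) and -0.12 to 0.14 (Jarid2); in ESCs, -0.050 to 0.016 (Eed), -0.019 to 0.026 (Rbbp7), -0.28 to 0.18 (Phf19) and -0.14 to 0.081 (Epop). For WT iPSCs against day 7 Ezh1 ran from -0.032 to 0.22, and for WT ESCs against iPSCs Eed from -0.037 to 0.39, Phf19 -0.35 to 0.14, Ezh1 -0.036 to 0.21, Rbbp7 -0.074 to 0.060 and Epop -0.070 to 0.13. In the day 5 to day 3 interaction Eed ran from -0.064 to 0.049 and Rbbp7 -0.014 to 0.050, and in the iPSC to ESC interaction Eed from -0.23 to 0.20, Rbbp7 -0.0043 to 0.13, Rbbp4 -0.093 to 0.029, Mtf2 -0.13 to 0.0047 and Ezh2 -0.017 to 0.15.

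Phf19 at day 3 and day 5 rested on few counts per library, which limits what can be seen there.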
